A study of Mus musculus with 14 samples.

Results

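The genes examined here are Foxo1, Foxo3 and 5 genes of lymphocyte homing and quiescence that depend on FOXO1 in T cells, Ccr7, S1pr1, Klf2, Il7r and Tsc22d3. They were chosen by name, because FOXO1 is the repressor of miR-31 that the study names, and every probe set of the array annotated to 1 of these symbols alone was taken. Earlier results of these data were known when the choice was made. This gave 16 probe sets of 7 genes, out of 34945 probe sets with a single symbol and 18193 genes. Of the 16 probe sets, 15 were among the brightest 60% and were tested, and the remaining probe set of Tsc22d3 lay below that limit. A further probe set is shared by Foxo3 and another gene and was left out.

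RNA came from Th1 rep cells, mouse CD4+ T cells that had been activated repeatedly under Th1-polarizing conditions, as a model of T cells in chronic inflammation. Naive CD4+ cells of spleens and lymph nodes of OTII mice (6 to 10 weeks old), whose transgenic T cell receptor recognizes an ovalbumin peptide, were stimulated with that peptide on irradiated (30 Gy) antigen-presenting cells depleted of CD90.2, with IL-12 (5 ng/ml), an antibody against IL-4 (10 µg/ml) and, from the second stimulation, IL-2 (10 ng/ml). After the fourth round, viable cells received Antagomir-31, which is antisense to the miRNA, or its control Antagomir-SCR, each at 1 µM for 1.5 h, and were reactivated with plate-bound antibodies against CD3 and CD28 (3 µg/ml) in the same cytokines. In the study, cells left the stimulus for new plates 48 h after activation unless stated otherwise. Its description of the antagomir treatment states nothing else. The groups were Antagomir-31 and Antagomir-SCR at 36 h (2 arrays each), at 48 h (2 arrays each) and at 72 h (3 arrays each). Every cell had thus been polarized, kept in culture and reactivated, all cells carried the transgenic receptor, and cells without an antagomir and resting cells are not among the 14 arrays. The sources used here do not say whether replicates came from separate cultures. The p-values therefore cover only how far these samples lay apart, and that distance can be technical.

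FOXO1 and FOXO3 are forkhead transcription factors that are active in the nucleus of resting T cells. Signalling by the T cell receptor, costimulation and cytokines activates PI3K and AKT, which phosphorylate FOXO proteins, so that 14-3-3 proteins bind them and they leave the nucleus. This control acts on the protein, which an mRNA array does not measure. In the nucleus of naive and memory T cells FOXO1 sustains genes of recirculation through lymphoid organs, among them the chemokine receptor gene Ccr7 and, through the transcription factor KLF2, the egress receptor gene S1pr1, and it sustains the survival receptor gene Il7r. Tsc22d3, which encodes the leucine zipper protein GILZ, is induced by glucocorticoids and by FOXO factors.

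Mature miR-31 was not read from the arrays. Its sequences are shown because the antagomir is directed against this miRNA and because FOXO1 is the factor named as its repressor. The Mir31 gene lies at chr4:88910557-88910662 (GRCm38.p6), and both arms below are RefSeq sequences read 5′ to 3′ with the seed, bases 2 to 8, in capitals.
mmu-miR-31-5p: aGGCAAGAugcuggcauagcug
mmu-miR-31-3p: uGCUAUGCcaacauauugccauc
The 5p arm has 22 bases (chr4:88910614-88910635, minus strand) and the 3p arm 23 bases (chr4:88910577-88910599, minus strand), and the arms carry different seeds. The sequence of Antagomir-31 given by the study is the reverse complement of the 5p arm.

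The deposited values are linear intensities after RMA. The array medians lay between 23.4 and 23.8 at 36 h, between 21.8 and 22.1 at 48 h and between 27.9 and 28.4 at 72 h, close within a time and apart between times. For this reason treatments were compared within a time on the values as deposited, and times were compared after quantile normalization over the 14 arrays. Time and the normalization of its arrays cannot be told apart. All 8 measured T cell markers and all 7 Th1 markers were among the brightest 60%. Of the markers of other cells, Cd79a, Cd79b and Ms4a1 of B cells, Itgam, Adgre1 and Cd68 of macrophages, Itgax and Xcr1 of dendritic cells and Ncr1 and Cd8b1 of NK and CD8 T cells were below that limit. Cd22, Blk and Pax5 of B cells, Cd14, Csf1r, Lyz2 and Fcgr1 of macrophages and Flt3, Zbtb46 and Siglech of dendritic cells passed it. The brightest of these were Csf1r (63.7 to 75.3), Cd14 (48.7 to 68.4) and Zbtb46 (49.5 to 59.2). They were about as bright as the Th1 marker Cxcr3 (44.4 to 64.9). The summed intensities of these lists were 111 to 180.3 for B cells (3 of 6 markers past the limit), 206 to 262 for macrophages (4 of 7), 123 to 162 for dendritic cells (3 of 5) and 1205 to 2089.6 for CD8 T and NK cells (2 of 4) over the 14 arrays. Nearly all of the last sum was Klrd1, an NK receptor gene at 1121 to 2029.7, while Cd8a was near the limit, at 26.9 to 37.95. At 72 h the Th1 markers summed to between 12985 and 13440.1 in Antagomir-31 arrays, against 13617 to 13793 in Antagomir-SCR arrays. The T cell markers summed to between 16652 and 17157 in Antagomir-31 arrays, against 17411 to 17489 in Antagomir-SCR arrays, so neither sum overlapped between treatments. At 48 h the Th1 sum did not overlap either, at 18830.5 to 19135 in Antagomir-31 arrays, against 19277 to 19497 in Antagomir-SCR arrays. Most of the Th1 sum was Ifng, at 15182 to 15675 at 48 h and 8188 to 8718 at 72 h over both treatments. The part of these sums in the results below was not tested. As the cells were measured in bulk, fewer cells that express a gene and less RNA of it per cell cannot be told apart.

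The first question was whether blocking miR-31 changed the mRNA of its repressor and of the genes downstream of that repressor. None of the 15 probe sets passed an adjusted p of 0.05 (limma, Benjamini-Hochberg over 20967 probe sets) at 36 h, 48 h or 72 h, or on the average of the times. Over all probe sets tested, 0% passed at 36 h, 0% at 48 h, 0.291% at 72 h and 0.00954% on the average. At an unadjusted p under 0.05, 6 member probe sets passed at 36 h, 6 at 48 h, 3 at 72 h and 7 on the average, beside 1048, 1277, 3393 and 1809 of all probe sets. The smallest adjusted p of a member was 0.42 at 36 h, 0.42 at 48 h, 0.13 at 72 h and 0.16 on the average. The median 95% interval of a member's log2 difference reached 0.18 to either side at 36 h and 48 h and 0.14 at 72 h. These intervals are not adjusted for the number of probe sets, and log2 differences of up to 0.39 did not pass the adjusted threshold.

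The arrays nevertheless leaned one way at the earlier times. The log2 difference of Antagomir-31 minus Antagomir-SCR was positive for 12 of 15 member probe sets at 36 h (median 0.13), for 15 of 15 at 48 h (median 0.16) and for 9 of 15 at 72 h (median 0.02), while the median over all probe sets was within 0.011 of 0 at each time. With Antagomir-31 every array lay above every Antagomir-SCR array for 10 of the 15 at 36 h, where 14.5% of all probe sets did so, for 8 at 48 h (14.3% of all) and for 1 at 72 h (9% of all). Every Antagomir-31 array lay below for 2 at 36 h (14.6% of all), for 0 at 48 h (18.5% of all) and for 1 at 72 h (13.5% of all). Several of these probe sets belong to the same gene, and the members were chosen with earlier results of these data known, so these counts are a description.

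**Figure D1:**
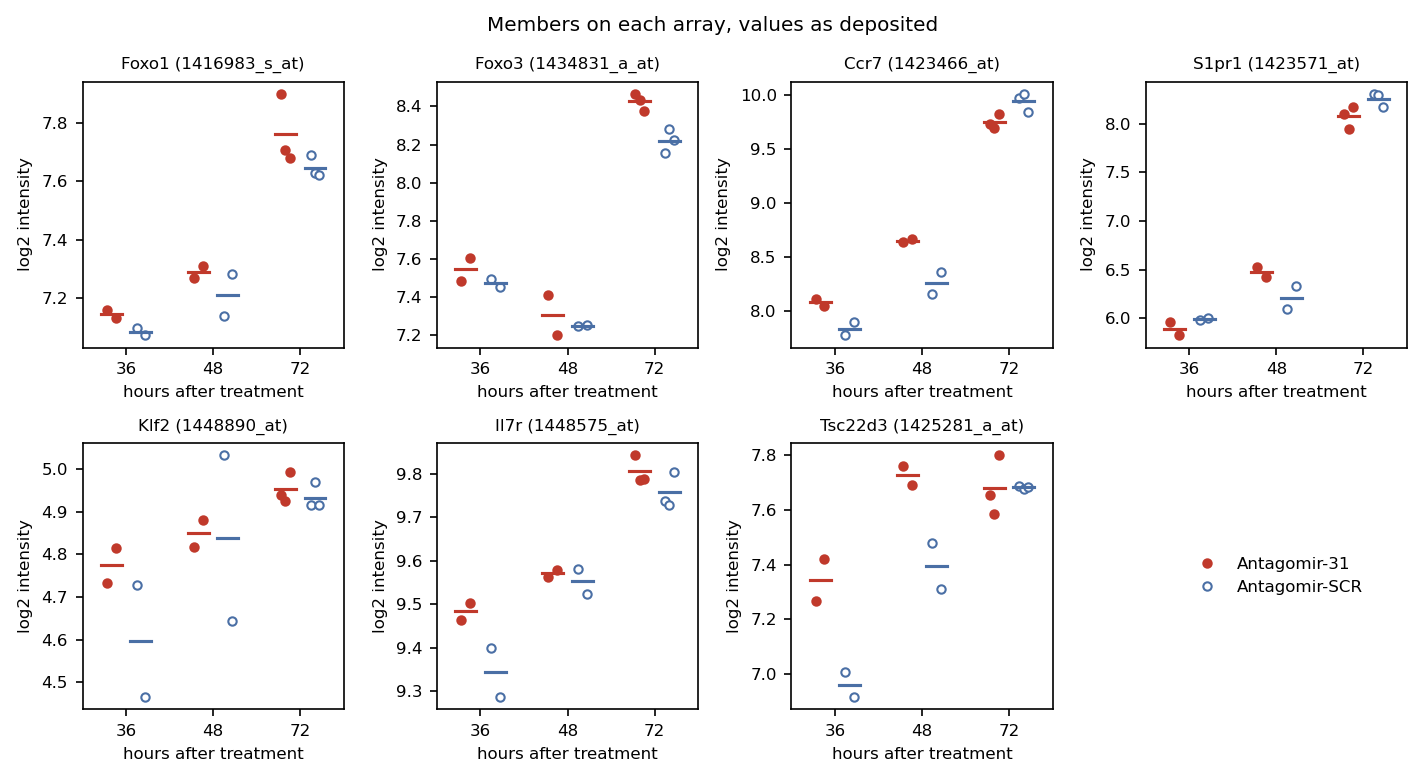
log2 of the deposited intensity on each of the 14 arrays (vertical axes, 1 scale per gene) against hours after treatment, for the brightest probe set of each gene. Points are arrays, filled for Antagomir-31 and open for Antagomir-SCR, and bars are group means. Ccr7 with Antagomir-31 lies above Antagomir-SCR at 36 h and 48 h and below it at 72 h, and Tsc22d3 lies above at 36 h and 48 h and overlaps at 72 h.

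Foxo1 (chr3:52268337-52350109, GRCm38.p6), the factor itself, had 4 probe sets. The brightest, 1416983_s_at, had 143 and 140.2 at 36 h with Antagomir-31 and 137 and 135 with Antagomir-SCR, then 154 and 159 against 141 and 156 at 48 h, and 239, 209 and 205 against 207, 198 and 197 at 72 h. The treatments did not overlap at 36 h and overlapped at 48 h and at 72 h, where 1 Antagomir-31 array stood well above the others. Its log2 difference was 0.06 (SE 0.075, 95% interval -0.10 to 0.22) at 36 h, 0.08 at 48 h (SE 0.075, -0.08 to 0.24) and 0.12 at 72 h (SE 0.061, -0.02 to 0.25, adjusted p = 0.37). The average over the times was 0.08 (SE 0.041, -0.004 to 0.17). Of the other Foxo1 probe sets, 1416981_at was 83.6 and 90.3 against 74.5 and 78.0 at 48 h (log2 difference 0.19, SE 0.079, adjusted p = 0.79), with no overlap, and overlapped at 36 h and 72 h. Those of 1416982_at and 1456529_at gave log2 differences between -0.12 and 0.13, each with an interval across 0.

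Foxo3 (chr10:42181845-42276695), which shares many target genes with Foxo1, had 3 probe sets that did not move alike. At 72 h 1434831_a_at had 354, 346 and 333 with Antagomir-31 and 285, 311 and 299 with Antagomir-SCR, a log2 difference of 0.21 (SE 0.060, 95% interval 0.07 to 0.34, 1.15-fold, adjusted p = 0.13). All Antagomir-31 arrays were higher than all Antagomir-SCR arrays. At the same time 1434832_at had 158, 154 and 148 against 156, 149.6 and 148 (log2 difference 0.02), and 1450236_at had 44.0, 43.1 and 49.6 against 47.1, 51.4 and 46.3 (-0.08), so the difference at 72 h was found at 1 of 3 probe sets. At 48 h 1434832_at had 104 and 90.5 against 80.4 and 89.7 (0.19, SE 0.076, adjusted p = 0.77), and at 36 h 1450236_at had 42.3 and 45.6 against 36.9 and 39.0 (0.21, SE 0.087, adjusted p = 0.97), both without overlap.

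Ccr7 (chr11:99144199-99155077, 1 probe set), the receptor for CCL19 and CCL21 that guides T cells into lymph nodes, differed between treatments in opposite directions early and late. It had 277 and 266 with Antagomir-31 and 219.6 and 239.9 with Antagomir-SCR at 36 h, 398 and 406 against 286 and 329 at 48 h, and 850.5, 828 and 903 against 1003, 1030.2 and 914 at 72 h. The treatments did not overlap at any time, with Antagomir-31 above at 36 h and 48 h and below at 72 h. The log2 difference was 0.24 (SE 0.081, adjusted p = 0.77) at 36 h, 0.39 (SE 0.081, 95% interval 0.21 to 0.57, 1.31-fold, adjusted p = 0.42) at 48 h and -0.19 (SE 0.066, -0.33 to -0.05, adjusted p = 0.18) at 72 h. The effect at 72 h was 0.58 lower on the log2 scale than that at 48 h (-0.58, SE 0.10, -0.81 to -0.35, unadjusted p = 1.2e-04, adjusted p = 0.18) and differed from that at 36 h by -0.43 (SE 0.10, adjusted p = 0.28). In these tests of the difference between times 0 of 20967 probe sets passed the adjusted threshold, with 1906 and 2122 at an unadjusted p under 0.05. With a variance trend in limma, the Ccr7 difference between 72 h and 48 h passed (adjusted p = 0.018).

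S1pr1 (chr3:115710433-115715055, 1 probe set), the receptor for sphingosine 1-phosphate through which T cells leave lymphoid organs, had 62.2 and 56.6 with Antagomir-31 and 63.1 and 64.1 with Antagomir-SCR at 36 h, 92.3 and 86.1 against 68.3 and 80.3 at 48 h, and 275, 247 and 289 against 318, 314 and 288 at 72 h. Antagomir-31 lay below at 36 h and above at 48 h without overlap, and at 72 h its highest array just passed the lowest Antagomir-SCR array. The log2 differences were -0.10 (SE 0.093, adjusted p = 1.0), 0.27 (SE 0.093, 95% interval 0.06 to 0.47, adjusted p = 0.75) and -0.18 (SE 0.076, -0.35 to -0.02, adjusted p = 0.27) at 36 h, 48 h and 72 h. Without Antagomir-SCR replicate 1 the difference at 48 h was 0.15 and without Antagomir-31 replicate 2 that at 36 h was -0.03. The effect at 72 h minus that at 48 h was -0.45 (SE 0.12, adjusted p = 0.35), and that at 48 h minus that at 36 h was 0.37 (SE 0.13, unadjusted p = 0.017, adjusted p = 1.0). Both homing receptor genes thus had their highest relative level with Antagomir-31 at 48 h and their lowest at 72 h, by differences that did not pass the adjusted threshold.

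Il7r (chr15:9506159-9529941), which encodes the alpha chain of the receptor for the survival cytokine IL-7, differed little. Its brighter probe set 1448575_at had 706 and 726 with Antagomir-31 and 676 and 624 with Antagomir-SCR at 36 h, 756 and 765 against 766 and 736 at 48 h, and 919, 884 and 884 against 854, 849 and 894 at 72 h. The treatments overlapped at 48 h and 72 h but not at 36 h, where the log2 difference was 0.14 (SE 0.056, 95% interval 0.02 to 0.26, adjusted p = 0.97). At 48 h it was 0.02 (-0.11 to 0.14) and at 72 h 0.05 (-0.05 to 0.15). The dimmer 1448576_at overlapped between treatments at every time, with log2 differences of 0.10, 0.08 and 0.05.

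Klf2 (chr8:72319062-72321654, 1 probe set), a Krüppel-like factor that keeps T cells quiescent and drives S1pr1, was close to the lower limit of the tested probe sets, a mean intensity of 21.5. It had 26.6 and 28.2 with Antagomir-31 and 26.5 and 22.1 with Antagomir-SCR at 36 h, 28.2 and 29.4 against 32.7 and 25.0 at 48 h, and 30.7, 30.4 and 31.8 against 30.2, 31.4 and 30.2 at 72 h. The treatments overlapped at 48 h and 72 h, and at 36 h their nearest arrays were almost equal. The log2 differences were 0.18 (SE 0.11, 95% interval -0.06 to 0.42), 0.01 (-0.23 to 0.25) and 0.02 (-0.18 to 0.21) at 36 h, 48 h and 72 h.

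Tsc22d3 (chrX:140539528-140600522) had the largest log2 differences of the 7 genes at 36 h, at more than 1 probe set. Its brightest, 1425281_a_at, had 154 and 171 with Antagomir-31 and 129 and 121 with Antagomir-SCR at 36 h, 217 and 207 against 178 and 159 at 48 h, and 201, 192 and 223 against 206, 205 and 206 at 72 h. Antagomir-31 lay clear above at 36 h and 48 h, and the treatments overlapped at 72 h. The log2 difference was 0.38 (SE 0.082, 95% interval 0.20 to 0.56, 1.30-fold, unadjusted p = 5.3e-04, adjusted p = 0.42) at 36 h, 0.33 (SE 0.082, adjusted p = 0.61) at 48 h and -0.004 (-0.15 to 0.14) at 72 h, and the average was 0.24 (SE 0.045, 1.18-fold, adjusted p = 0.16). For 1420772_a_at the values were 135 and 162 against 112 and 119 at 36 h and 175 and 182 against 157 and 128 at 48 h, log2 differences of 0.36 (SE 0.10, adjusted p = 0.62) and 0.33 (SE 0.10, adjusted p = 0.71). For 1425557_x_at, whose suffix marks probes that may bind other transcripts, they were 79.9 and 77.7 against 62.1 and 71.1 (0.25, adjusted p = 0.77) and 68.2 and 69.4 against 63.8 and 59.2 (0.16, adjusted p = 0.83). These 3 probe sets, which read the same RNA samples of 1 gene, did not overlap between treatments at 36 h or 48 h and overlapped at 72 h. The effect on 1425281_a_at at 72 h differed from that at 36 h by -0.39 (SE 0.11, adjusted p = 0.29) and from that at 48 h by -0.34 (SE 0.11, adjusted p = 0.41).

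**Figure D2:**
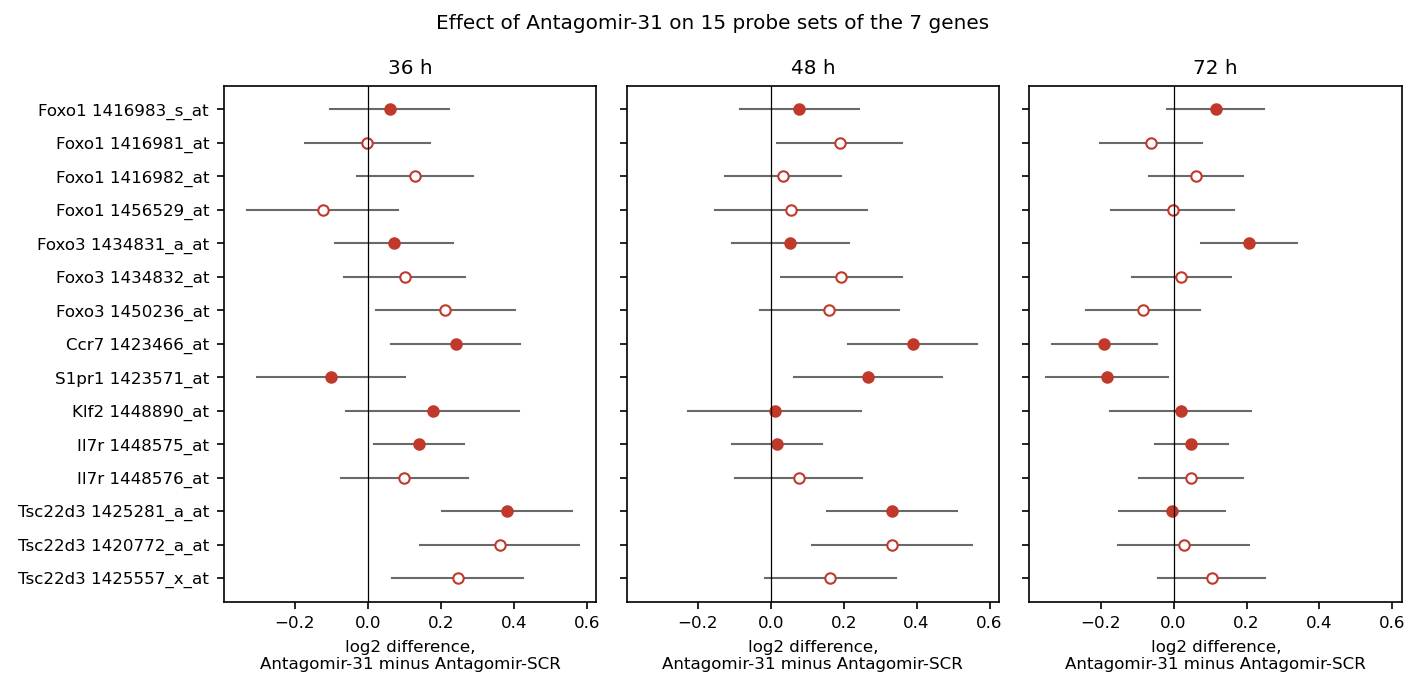
log2 difference of Antagomir-31 minus Antagomir-SCR for the 15 tested probe sets at 36 h, 48 h and 72 h, with 95% intervals from limma. Filled points are the brightest probe set of a gene and open points its other probe sets. None passed an adjusted p of 0.05, and at 36 h the 3 probe sets of Tsc22d3 and that of Ccr7 lie highest.

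The neighbouring genes of the pathway were compared in the same way. At the brightest probe set of each gene, 0 genes of any list passed at 36 h, at 48 h or on the average, and 1 passed at 72 h, where 0.141% of 12081 genes were higher and 0.174% lower. Among 20 tested regulators upstream of FOXO, the smallest p at 72 h were those of Sirt1, a deacetylase of FOXO proteins (0.23, SE 0.057, adjusted p = 0.088), and Akt1, the kinase that excludes them from the nucleus (-0.17, adjusted p = 0.18), and at 48 h that of Pik3cd, the lymphocyte PI3K subunit (0.34, adjusted p = 0.69). Among 22 quiescence, catabolic and survival targets, the stress gene Gadd45b had 0.25 at 36 h and at 48 h (adjusted p = 0.43 and 0.42), and the cell cycle inhibitor gene Cdkn1b had -0.22 at 72 h (adjusted p = 0.089). In the list of glucocorticoid-induced genes that holds Tsc22d3, the stress-responsive mTORC1 inhibitor gene Ddit4 had 0.25 (adjusted p = 0.62), 0.27 (adjusted p = 0.61) and -0.18 (adjusted p = 0.15) at 36 h, 48 h and 72 h. In the KLF family, Klf10, a TGF-beta-induced factor, had 0.39 at 48 h (SE 0.072, unadjusted p = 1.7e-04, adjusted p = 0.42) and Klf9 -0.25 at 72 h (SE 0.053, adjusted p = 0.071). Of the genes that FOXO1 restrains in effector cells, Tbx21, which encodes the Th1 factor T-bet, had 0.03, -0.04 and -0.09 at 36 h, 48 h and 72 h (adjusted p between 0.41 and 1.0).

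The single gene that passed was Bach2, a transcriptional repressor that preserves naive and memory states, in the list of homing and memory targets (10 tested). At 72 h it had 104, 109.6 and 108 with Antagomir-31 and 134, 136 and 129.9 with Antagomir-SCR, all Antagomir-31 arrays below, for a log2 difference of -0.32 (SE 0.057, adjusted p = 0.0499). The call held in 6 of 16 alternatives, with adjusted p between 0.010 and 0.21, and the direction in 16 of 16. It was lost without Antagomir-31 replicate 2 (adjusted p = 0.21) or 3 (0.13), without Antagomir-SCR replicate 2 (0.11), 3 (0.13) or 4 (0.084), with no filter on dim probe sets (0.11) and after quantile normalization (0.059).

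The same arrays gave the course of these genes after reactivation, with both treatments averaged. By the study's general methods the cells left the stimulus at 48 h. The step from 48 h to 72 h and this removal cannot be told apart. Other measures moved with time, and their part in the changes below was not tested. The actin control, a sign of RNA quality, was read as the log2 difference of its 3′ minus its 5′ probe set. It lay between 0.32 and 0.43 at 36 h and between 0.37 and 0.41 at 48 h. At 72 h it was lower, with no overlap, between 0.21 and 0.27. For the Gapdh control the same difference was instead highest at 72 h, where the arrays lay between -0.005 and 0.088. Those of 36 h lay between -0.046 and -0.028, and those of 48 h between -0.024 and -0.012, again with no overlap. Actin and Gapdh thus moved in opposite directions at 72 h. The sum of the Th1 markers lay between 20154 and 20932 at 36 h, between 18830.5 and 19497 at 48 h and between 12985 and 13793 at 72 h. That of the T cell markers lay between 18614 and 18809 at 36 h, between 17393 and 17955 at 48 h and between 16652 and 17489 at 72 h. Most of the Th1 sum was Ifng, at 16420 to 17166 at 36 h and 8188 to 8718 at 72 h. For 72 h minus 36 h, 3 of the 7 Th1 markers were called higher and 3 lower after quantile normalization. Of the 8 T cell markers 3 were called higher and 5 lower, with Cd5 at 1562 to 1773 at 36 h and 206 to 259 at 72 h. Of the 15 probe sets, 9 rose and 3 fell at 48 h relative to 36 h, 8 rose and 3 fell at 72 h relative to 48 h, and 11 rose and 1 fell at 72 h relative to 36 h (adjusted p under 0.05). Time moved most of the transcriptome, so these counts stand beside 22.5% of all probe sets higher and 20.9% lower for 48 h against 36 h (43.5% in either direction), 39.1% higher and 35.6% lower for 72 h against 48 h (74.6%), and 39.7% higher and 37.1% lower for 72 h against 36 h (76.8%). On the values as deposited, whose median over all probe sets moved by -0.056, 0.35 and 0.29 in these comparisons, the member counts were 6 higher and 5 lower, 14 higher and 0 lower, and 15 higher and 0 lower. Under median centring they were 9 and 1, 8 and 4, and 11 and 0. Of all calls, the higher ones made up 51.9%, 52.3% and 51.7% after quantile normalization, 34.3%, 83.4% and 78.4% as deposited and 67.1%, 48.9% and 53.9% under median centring. Directions below are therefore relative to the other genes, with a change named where the scaling turned it.

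Ccr7 and S1pr1 rose at both steps under every scaling, and most of the members from 36 h to 72 h. Quantile-normalized Ccr7 was 272 ± 26.1 at 36 h, 393 ± 62.9 at 48 h and 841 ± 73.6 at 72 h (SD over both treatments, n = 4, 4 and 6), and no array of a time overlapped with those of another. Its log2 change was 0.52 (SE 0.055, adjusted p = 2.1e-05) for 48 h minus 36 h and 1.11 (SE 0.050, adjusted p = 8.8e-10) for 72 h minus 48 h, 3.09-fold in all. S1pr1 was 66.9 ± 3.62, 92.0 ± 10.9 and 254 ± 22.3, again with no overlap, and its changes were 0.45 (SE 0.065, adjusted p = 1.8e-04) and 1.47 (SE 0.059, adjusted p = 2.8e-10), 3.79-fold in all. Of 12081 genes, 0.488% rose more than S1pr1 and 0.762% more than Ccr7 for 72 h minus 36 h. Every alternative kept both calls except that S1pr1 for 48 h minus 36 h had an adjusted p of 0.060 on the Antagomir-SCR arrays alone.

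Foxo1 mRNA rose less, and its probe sets disagreed. At 1416983_s_at it was 152 ± 4.0, 171 ± 7.58 and 182 ± 14.8 at 36 h, 48 h and 72 h, a log2 rise of 0.16 (SE 0.053, adjusted p = 0.025) at the first step and 0.26 (SE 0.048, adjusted p = 3.6e-04) over both. The call of the first step was lost without any of 5 single arrays, namely Antagomir-31 replicate 1 at 36 h (adjusted p = 0.058), replicate 2 at 36 h (0.052) and replicate 2 at 48 h (0.074), and Antagomir-SCR replicate 2 at 36 h (0.069) and at 48 h (0.090). As deposited that step was 0.14 (adjusted p = 0.051). At 1416981_at the rise of 0.50 (SE 0.052) came at the second step, with 88.7 ± 2.42, 92.0 ± 7.76 and 129.7 ± 8.65 at the 3 times. At 1456529_at it came at the first (0.57, SE 0.069), with 20.6 ± 1.45, 30.7 ± 2.61 and 28.1 ± 1.57. All 4 arrays of this probe set at 36 h, at 17.9 to 20.8 as deposited, lay below the filter limit of 21.5. It thus passed the filter through the later times, and its rise, which is part of the counts above, depends on that selection. At 1416982_at a rise of 0.14 was followed by a fall of 0.21 (-0.21, SE 0.048), which became a rise of 0.16 on the values as deposited. Over the 14 arrays the correlation between pairs of Foxo1 probe sets was between -0.45 and 0.70. The probe sets may read different transcripts, and the files do not say which.

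Foxo3 had a dip at 48 h at all 3 probe sets. At 1434831_a_at it was 199.6 ± 10.5, 173 ± 9.86 and 284 ± 27.8, a fall of 0.20 on the log2 scale (-0.20, SE 0.055, adjusted p = 0.011) and then a rise of 0.71 (SE 0.050, adjusted p = 5.5e-08). At 1434832_at the changes were -0.20 and 0.38 and at 1450236_at -0.28 and 0.18, all past the threshold. Under median centring the first step was -0.13 at 1434831_a_at (adjusted p = 0.067) and -0.13 at 1434832_at (adjusted p = 0.072), both no longer called, and -0.25 at 1450236_at (adjusted p = 0.0062). A further FOXO gene, Foxo4, fell by 0.26 on the log2 scale (-0.26) and then rose by 0.17.

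Klf2 and the brightest probe set of Tsc22d3 rose at 48 h and fell at 72 h, a fall that turned into a gain on the values as deposited. Klf2 was 27.4 ± 2.74, 32.7 ± 3.60 and 27.2 ± 0.523, changes of 0.25 (SE 0.076, adjusted p = 0.017) and -0.26 (SE 0.069, adjusted p = 0.0042), so that 72 h and 36 h differed by -0.01 (95% interval -0.16 to 0.14). As deposited the changes were 0.16 (adjusted p = 0.11) and 0.099, and the first lost its call also without any of 4 arrays, down to 0.16 without Antagomir-SCR replicate 1 at 48 h (adjusted p = 0.060). Tsc22d3 at 1425281_a_at was 158 ± 26.7, 213 ± 28.9 and 179 ± 8.75, a rise of 0.44 (SE 0.061, adjusted p = 1.5e-04) and a fall of 0.24 (-0.24, SE 0.056, adjusted p = 0.0017), with 0.12 for the second step as deposited. The spread at 36 h and 48 h includes the distance between treatments given above. Its 1420772_a_at rose at both steps (0.31 and 0.19), its 1425557_x_at fell by 0.17 over both (-0.17, adjusted p = 0.013; 0.16 as deposited), and its dim 1444365_at, fitted without the filter, was 8.14 ± 0.685, 10.3 ± 0.863 and 13.6 ± 0.669. The probe sets of Tsc22d3 thus gave different courses, with correlations between -0.41 and 0.82.

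Il7r was among the brighter probe sets, and after quantile normalization its probe sets rose at different steps. At 1448575_at it was 721 ± 44.3, 825 ± 17.3 and 805 ± 26.2, a rise of 0.20 (SE 0.040, adjusted p = 0.0021) at the first step and -0.03 (95% interval -0.11 to 0.05) at the second. On the values as deposited the second step of this probe set was a rise of 0.22. At 1448576_at it was 302 ± 23.1, 276 ± 14.6 and 367 ± 14.6, with -0.13 (adjusted p = 0.081) and then a rise of 0.41 (SE 0.052, adjusted p = 1.1e-05). The correlation between both was 0.18.

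**Figure D3:**
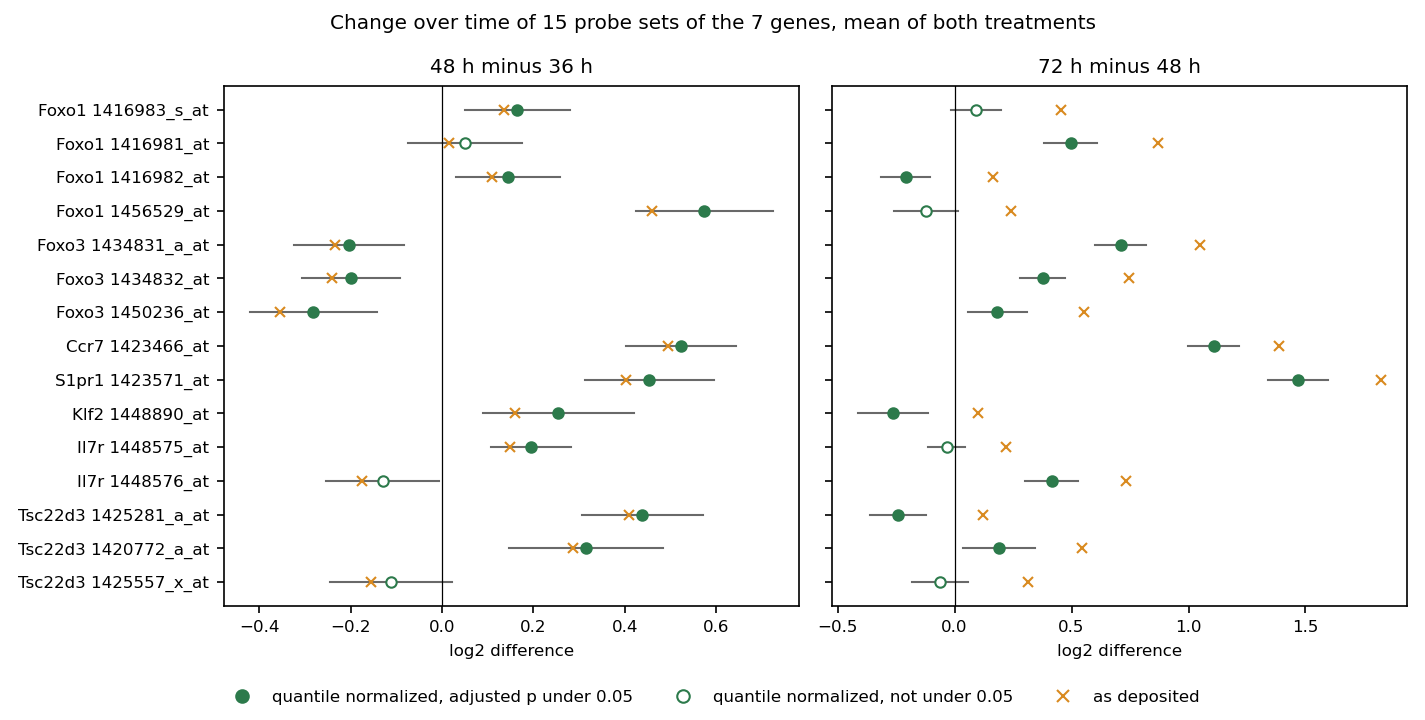
log2 change of the 15 tested probe sets for 48 h minus 36 h and 72 h minus 48 h, mean of both treatments, with 95% intervals from limma on quantile-normalized values (circles, filled where the adjusted p was under 0.05). Crosses are the values as deposited, which lie higher at the second step. S1pr1 and Ccr7 have the largest changes of the second step, and Foxo3 fell at the first step at all 3 probe sets.

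The other genes of the pathway did not move as a block over time. For 72 h minus 36 h, at the brightest probe set of each gene, 38.4% of all genes were called higher and 38.7% lower, with a median of about 0. Of 10 homing and memory targets, 5 rose and 3 fell (median log2 change 0.08). Beside S1pr1 and Ccr7 this list held large changes in both directions, given here for different steps. Cxcr4, the receptor for CXCL12, rose by 3.67 on the log2 scale at the second step, while Bach2 fell by 2.67 (-2.67) and Id3, an inhibitor of E proteins, by 2.37 (-2.37) over both steps. Of 22 quiescence, catabolic and survival targets, 12 rose and 7 fell (median 0.15). The pocket protein gene Rbl2 rose by 1.54, the stress gene Sesn1 by 1.34 and Txnip, which restrains glucose uptake, by 1.26, and the pro-apoptotic gene Bcl2l11 fell by 2.08 (-2.08). Of 10 quiescence factors of T cells, 2 rose and 5 fell (median -0.14), with Pik3ip1, an inhibitor of PI3K, at 1.47 and Btg2, Klf4 and Slfn2 at -2.54, -1.91 and -1.44. As deposited the counts of these lists were 7 and 2, 16 and 2, and 5 and 4.

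Upstream of FOXO, 10 of 20 regulators rose and 6 fell (median 0.08; 14 and 3 as deposited). Akt1 rose by 1.56 and Usp7, a deubiquitinase that acts on FOXO proteins, by 0.64, while Sgk1, another FOXO kinase, fell by 1.39 (-1.39). Of 4 genes that FOXO1 restrains in effector cells, Tbx21 rose by 0.38, and Ifng, the Th1 cytokine gene, Cd69, whose product retains S1P receptor 1 inside the cell, and Gzmb, the granzyme B gene, changed by -1.07, -0.54 and -0.11 (1 rose and 3 fell). As deposited Gzmb was at 0.03 and not called, with 1 of the 4 higher and 2 lower, while every other gene named for 72 h minus 36 h in these lists kept its direction. Among 11 S1P receptor and egress genes, 3 rose and 7 fell (6 and 5 as deposited). Sphk1, which makes sphingosine 1-phosphate, S1pr3 and the transporter gene Spns2 fell by 1.56, 1.48 and 1.19 on the log2 scale (-1.56, -1.48 and -1.19), so that S1pr1 moved against most of its list on the quantile-normalized scale. Among 8 IL-7 receptor partners, 5 rose and 3 fell (5 and 1 as deposited), with Jak3, the kinase of the shared chain, at 0.80, Stat5b at 0.69, Il2ra at 0.46 and Crlf2, the partner of IL-7 receptor alpha in the TSLP receptor, at -1.26. In the KLF family, 2 of 8 rose and 5 fell (3 and 4 as deposited), Klf10 at 1.00 and Klf4, Klf9 and Klf13 at -1.91, -1.06 and -0.47. Of 9 glucocorticoid-induced genes, 4 rose and 4 fell, also as deposited, with Ddit4 at 1.03 and Zfp36, Per1 and Dusp1 at -0.93, -0.83 and -0.82.

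**Figure D4:**
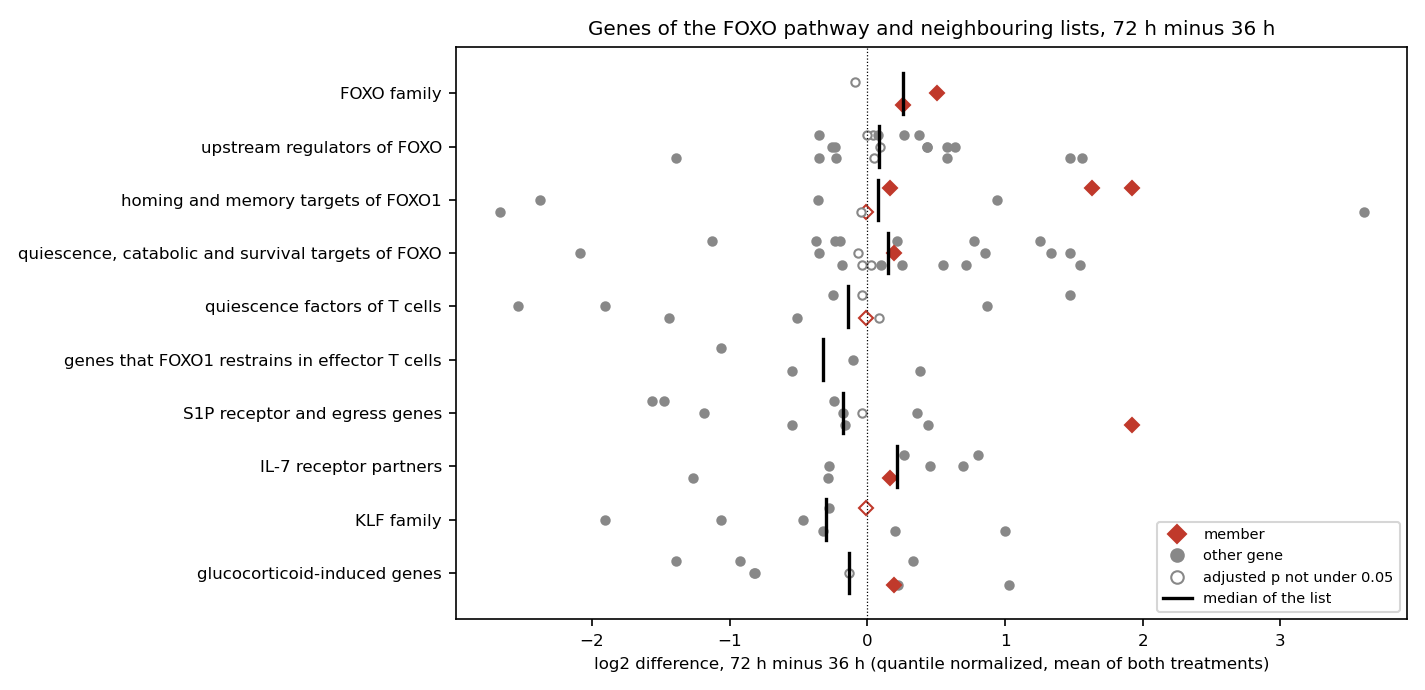
log2 change of 72 h minus 36 h (quantile normalized, mean of both treatments) of every tested gene of 10 lists around FOXO1, at its brightest probe set. Diamonds are the 7 genes described here, circles other genes, open symbols those with an adjusted p not under 0.05, and bars the list medians. Each list holds genes on both sides of 0, and S1pr1 lies far right of the other S1P receptor and egress genes.

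The genes most like Foxo1 were found by Pearson's correlation with 1416983_s_at over the 14 quantile-normalized arrays, among 12079 other genes. The highest were Plekha2, whose product binds a PI3K lipid product (0.94), the deacetylase gene Sirt2 (0.92), Gclm of glutathione synthesis (0.91), Rap1gds1, a regulator of small GTPases (0.91), and the inflammasome gene Nlrp3 (0.91). The lowest were Mpdu1 (-0.93), Pdcl3 (-0.92), Cluh (-0.92), the cell cycle inhibitor gene Cdkn2d (-0.91) and Piga of GPI anchor synthesis (-0.91). The other members ranked lower, with Ccr7 at 0.76 (rank 722), Il7r at 0.75 (760), S1pr1 at 0.73 (1049), Foxo3 at 0.60 (2856), Tsc22d3 at 0.39 (4429) and Klf2 at -0.011 (6123). The arrays share 3 time points and their normalization, so the points are not independent and these values are a description.

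Because FOXO factors bind the letters GTAAACA or ATAAACA and their core AAACA, the promoter windows of the members were searched on both strands, from 250 bases before to 50 after the start (RefSeq, GRCm38.p6). In 7 windows of 5 members, which leave out Ccr7 and S1pr1, GTAAACA and ATAAACA did not occur, while 3.65% and 4.6% of 32851 windows hold them. The core, which is part of both, occurred in 4 of the 7 windows and in 50.5% of all. The stretches that hold it in the factor gene itself and in 2 of the genes downstream are shown 5′ to 3′ on the gene's strand, leaving out a second Tsc22d3 match that lies after a start, with the core or its reverse complement in capitals.
Foxo1: ccagagactcagAAACActtgagaattac
Il7r: gctcagacttccTGTTTctggcacttgcc
Tsc22d3: tcactcaaagatTGTTTgtgaagctcact
They lie at chr3:52268129-52268157 (plus strand), chr15:9529903-9529931 (minus strand) and chrX:140548675-140548703 (minus strand). Their centres are 194, 41 and 118 bases before the starts used for these windows, chr3:52268337, chr15:9529876 and chrX:140548571. The starts used for Il7r and this Tsc22d3 window lie inside the gene coordinates given above, and so do both stretches. These matches are a description of letters in the window, and FOXO1 binding was not measured in these arrays.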

How the data were processed

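Gene expression in Th1 rep cells was measured on 14 Affymetrix mouse genome arrays. The authors read them with GCOS and normalized them by RMA in the affy R package (versions not given in the sources used here), and the deposited values are linear intensities for 45101 probe sets, for which log2 was taken here. The number of arrays limits the precision. Of the probe sets, 64 were controls, 34945 had 1 symbol, 932 several and 9160 none. For 34742 the symbol was looked up by identifier, and 1 was updated.

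Probe sets in the brightest 60% by mean log2 (at least 4.43) entered 1 fit over 6 groups of treatment and time (limma 3.58.1, R 4.3.3), and Benjamini-Hochberg adjustment ran over all 20967. Python 3.11.15 prepared tables and figures. Log2 values of the deposited intensities were used for treatment, and quantile-normalized values for time. In data simulated for 20967 probe sets, the fit recovered 76%, 75% and 86% of changes of 0.5 on the log2 scale for the treatment at 36 h, 48 h and 72 h, and 97%, 98% and 99% of changes of 1 (100 probe sets of each size), with 9, 10 and 13 false calls. The simulation drew probe sets independently and held 200 changed ones, which eases the adjusted threshold. In the real data 0 probe sets passed at 36 h and 48 h, so these rates do not give the power for the members. The median SE of a treatment difference was 0.082, 0.082 and 0.067.

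Members and lists were chosen with earlier results of these data known. Named are all member probe sets, up to 4 genes of a list with the smallest p among those passing (2 where none passes), the 5 genes most and least correlated with Foxo1, and genes of the marker lists. Not every gene that this rule names is printed. Same-numbered arrays did not vary together (correlations of deviations from group means of 0.046 at 36 h, -0.15 at 48 h and -0.012 to 0.14 at 72 h), so numbers were not used to pair arrays. Alternatives changed the scaling, filter, variance trend, probe set summary, pseudocount, arrays and replicate block. List genes with no probe set annotated to them alone were not analysed here.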

Additional observations from a re-analysis of the deposited data

Results flagged for a closer look

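Member probe sets were flagged where all Antagomir-31 arrays lay above at any time and all below at a different time. The differences below come from the same arrays that met this rule. The share of all probe sets that meet it is not given here. The effect of Antagomir-31 on Ccr7 differed between times by arrays that all lay on opposite sides. With Antagomir-31 both arrays were above both Antagomir-SCR arrays at 36 h and at 48 h, and all 3 were below all 3 at 72 h. The effect at 72 h minus that at 36 h was -0.43 on the log2 scale (adjusted p = 0.28), and that at 72 h minus that at 48 h was -0.58 (adjusted p = 0.18), so the test of the difference itself did not pass. Leaving out single arrays gave -0.49 to -0.37 for the first and -0.68 to -0.48 for the second.

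S1pr1 with Antagomir-31 was below Antagomir-SCR on both arrays at 36 h and above on both at 48 h. The effect at 48 h minus that at 36 h was 0.37 (adjusted p = 1.0), and 0.25 to 0.48 with single arrays left out. The test of this difference did not pass either.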

How the results depend on the processing

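No member probe set was called for the treatment at any time, on the average or for the difference of the effect between times under any alternative run, except 1, Ccr7, for 72 h against 48 h with a variance trend. The count of called members for 48 h minus 36 h (12 of 15) was 5 on Antagomir-SCR arrays alone, 5 on Antagomir-31 arrays alone and 7 with 1 value a gene. With 1 value a gene the counts for 72 h minus 48 h and 72 h minus 36 h were 4 and 6, against 11 and 12, since 7 values were tested in place of 15. With single arrays left out the counts were 9 to 12, 9 to 12 and 11 to 12. With the replicate number as a block they were 11, 9 and 10, and 0 for every treatment comparison. Crossed numbers at 48 h, chosen after seeing the data, gave 0 called members, 0 of all probe sets at 48 h and 49 at 72 h. The 61 calls among all probe sets at 72 h were 3 to 399 with single arrays left out, 13 without the filter, 422 at a mean log2 of at least 6, 555 with the trend, 115 with 1 value a gene, 370 with 16 added to the intensity, 5 on the arrays of that time alone and 14 with a block of time and number. The fit with only the compared arrays coincides with that reported for the average and is not given again.

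Changes of sign included called values for 72 h minus 48 h, those of Klf2 (-0.26), Tsc22d3 1425281_a_at (-0.24) and Foxo1 1416982_at (-0.21). For the treatment at 72 h, Tsc22d3 1425281_a_at (-0.004) was 0.022 after quantile normalization and 0.027 with 1 value a gene. For 48 h minus 36 h, Foxo1 1416981_at (0.05) was -0.045 on Antagomir-SCR arrays. As deposited, 72 h minus 48 h was 0.16 for Foxo1 1416982_at, 0.24 for 1456529_at, 0.12 for Tsc22d3 1425281_a_at, 0.31 for 1425557_x_at, 0.22 for Il7r 1448575_at and 0.099 for Klf2. Also as deposited, 72 h minus 36 h was 0.27 for Foxo1 1416982_at, 0.16 for Tsc22d3 1425557_x_at, 0.26 for Klf2 and 0.20 for Foxo3 1450236_at. For 72 h minus 36 h, Foxo1 1416982_at was 0.017 and Klf2 0.0016 under median centring, Klf2 0.080 and Foxo3 1450236_at 0.041 on Antagomir-SCR arrays, and Klf2 0.042 with the replicate number as a block. With single arrays left out, the treatment differences were -0.051 to 0.16 for Foxo3 1434831_a_at, -0.011 to 0.047 for Il7r 1448575_at and -0.18 to 0.20 for Klf2 at 48 h, -0.064 to 0.044 for Tsc22d3 1425281_a_at and -0.0011 to 0.038 for Klf2 at 72 h, -0.044 to 0.033 for S1pr1 on the average, and Klf2 for 72 h minus 36 h was -0.069 to 0.054. The cause of these changes was not tested. Without 1 array, differences that kept their sign shrank to 0.15 for Tsc22d3 1425557_x_at, 0.23 for 1420772_a_at and 0.084 for Il7r 1448575_at at 36 h, and to 0.18 for Tsc22d3 1420772_a_at and 0.092 for Foxo3 1434832_at at 48 h.

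For Bach2 at 72 h, the blocks of time and number and of number gave adjusted p = 0.099 and 0.083. For time, leaving out single arrays also ended the calls of Foxo1 1416982_at (6 arrays) for 48 h minus 36 h, of Tsc22d3 1420772_a_at (4 arrays, adjusted p up to 0.17) and Foxo3 1450236_at (Antagomir-SCR replicate 2 at 48 h, 0.078) for 72 h minus 48 h, and of Tsc22d3 1425557_x_at (Antagomir-SCR replicate 2 at 36 h, 0.076) for 72 h minus 36 h.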
